A study of Mus musculus with 4 samples.

Results

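The nuclear genes of respiratory complexes I, II, IV and V were followed in CD11b+ microglia, the immune cells of the brain, from a mouse model of Alzheimer's disease with and without asrij. Genes were taken by symbol: Nduf followed by a, b, c, s or v and a digit, Sdha to Sdhd, Cox4i, Cox5, Cox6, Cox7 and Cox8 genes, and every Atp5 gene, leaving out symbols that contain -ps. Of 82 such symbols among the 49993 genes of the deposited tables, 74 had at least 40 reads over the 4 libraries and were kept. They comprised 38 genes of complex I, 4 of complex II, 15 of complex IV and 17 of complex V. Ndufa4 carries a complex I name but encodes a subunit now placed in complex IV, and was counted there. The gene nearest above the minimum was Ndufa11b, with 53 reads in all, and the nearest below was Ndufa4l2, with 38.

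All libraries came from brains of 10-month-old mice that carry the APP/PS1 transgenes, which drive amyloid deposition. The AD group (n = 2 libraries) was APP/PS1+ asrij+/+ and the AD/KO group (n = 2 libraries) APP/PS1+ asrij-/-, in which asrij (the mouse gene Ociad1) was deleted constitutively and so in every cell type. Cells were isolated by magnetic sorting on CD11b, a surface protein shared by microglia, other macrophages, monocytes and neutrophils. The design asked how loss of asrij bears on microglial activation, and no group without APP/PS1 was analysed here. Whether a library stands for 1 animal or several was not stated, so that the tests measure the spread between these libraries.

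The complexes sit in the inner mitochondrial membrane. Complex I oxidises NADH and complex II oxidises succinate, both passing electrons to ubiquinone. Complex IV (cytochrome c oxidase) hands electrons to oxygen, and complex V (ATP synthase) uses the resulting proton gradient to make ATP. Complexes I, IV and V are built from nuclear and mitochondrial genes and complex II from nuclear genes alone, so the genes described here hold most subunits but not the mitochondrially encoded cores. Asrij (OCIAD1) is itself a mitochondrial protein with reported roles in the electron transport chain. Microglia are known to shift between oxidative phosphorylation and glycolysis with their activation state.

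Library totals ran from 13102622 to 19810076 counts, and the 74 genes held 0.166% to 0.317% of them. Ociad1, the deleted gene, was counted 691 and 1032 times in AD and 746 and 592 times in AD/KO, from libraries of differing depth. Scaled to depth, its log2 fold change of AD/KO over AD was −0.68 in the edgeR fit described below, and did not pass the threshold there. Its level was thus lower in AD/KO, but its reads were not absent. The counts did not show a full loss, and the group names below are those of the labels. AD replicate 2 stood apart by a summed level of 7 neutrophil markers of 4384 CPM (reads scaled to library size, TMM-adjusted), against 308 to 498 CPM in the other libraries, and by 1391 reads of Xist against 3 to 15. The 24 neuron and astrocyte markers summed to 2472 and 6260 CPM in AD and to 6244 and 16477 CPM in AD/KO. The 15 homeostatic microglia markers summed to 22331 and 15350 CPM in AD and to 22776 and 7607 CPM in AD/KO, so the labelled cell type was present in every library and its markers were lowest in AD/KO replicate 2. Oligodendrocyte markers summed to 1660 and 2671 CPM in AD and to 3963 and 8660 CPM in AD/KO, and their part in the results was not tested.

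Before the values, the promoters of 4 genes that recur below are shown, 3 with letters of known factors and 1 without. Nuclear respiratory genes are textbook targets of the factors NRF1, GABP (an ETS factor) and YY1. The 3 motifs searched on both strands were CGCATGCG (the core letters) for NRF1, CCGGAAG for GABP and AAGATGGC for YY1, in the window from 250 bases before to 50 bases after each RefSeq start (GRCm38.p6). Each stretch runs 5′ to 3′ on the gene's strand from 180 bases before to 20 bases after the start, with matches in capitals. No match overlapped another.
Cox6a1 (chr5:115348939-115349138, minus strand): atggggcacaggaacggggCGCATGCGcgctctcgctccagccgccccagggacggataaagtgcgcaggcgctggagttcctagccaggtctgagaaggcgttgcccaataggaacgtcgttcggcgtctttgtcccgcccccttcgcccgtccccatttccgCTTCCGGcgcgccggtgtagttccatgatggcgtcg
Cox8a (chr19:7217597-7217796, minus strand): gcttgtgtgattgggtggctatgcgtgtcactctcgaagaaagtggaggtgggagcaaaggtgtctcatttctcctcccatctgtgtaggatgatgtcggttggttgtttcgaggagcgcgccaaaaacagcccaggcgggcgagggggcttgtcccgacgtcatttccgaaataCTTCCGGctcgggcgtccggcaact
Atp5k (chr5:108434380-108434579, minus strand): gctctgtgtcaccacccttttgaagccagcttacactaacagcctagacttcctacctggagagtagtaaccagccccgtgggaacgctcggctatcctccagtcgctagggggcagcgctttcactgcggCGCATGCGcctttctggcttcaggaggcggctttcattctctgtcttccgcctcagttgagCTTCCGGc
Ndufb10 (chr17:24724404-24724603, minus strand): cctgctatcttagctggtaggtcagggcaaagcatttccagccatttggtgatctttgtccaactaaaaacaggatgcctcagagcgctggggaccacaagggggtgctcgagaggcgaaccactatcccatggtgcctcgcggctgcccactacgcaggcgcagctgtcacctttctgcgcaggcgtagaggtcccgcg
Cox6a1 and Atp5k held an NRF1 and a GABP match, Cox8a a GABP match across the start, and Ndufb10 none of the 3 in these stretches. The genes shown were chosen with their values known. Over the whole window, 27 of the 63 genes with a promoter held any of the 3 motifs.

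Most of the 74 genes had a higher level in AD/KO than in AD, but none of the differences passed the test against the spread between libraries. The summed level of the 74 genes was 1579 and 2151 CPM in AD and 2420 and 3403 CPM in AD/KO. Both AD/KO libraries thus lay above both AD libraries, but AD/KO replicate 2 stood 1.41-fold above AD/KO replicate 1, and AD replicate 2 stood 1.36-fold above AD replicate 1. In the quasi-likelihood fit of edgeR, with p-values adjusted by Benjamini-Hochberg over the 21439 genes tested, 0 of the 74 genes passed at an adjusted p under 0.05, as did 0% of all genes. The unadjusted p was under 0.05 for 3 (Ndufb10, Ndufb9 and Cox6a1), all higher in AD/KO, where 2.7% of all genes were higher and 2.3% lower at that level. DESeq2's own test called 0 members, where 91 of the 33724 genes it tested were called. It put 5 members at an unadjusted p under 0.05, where 7.29% of all genes it tested were at that level. In bulk libraries fewer cells of a type and less RNA per cell cannot be told apart.

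All 74 genes passed the filter on low counts. The fitted log2 fold change was above 0 for 70 of them, against 47.2% of all genes, with a median of 0.58 over the 74 and of −0.05 over all genes. The count above 0 was 69 with upper-quartile scaling, where the median of all genes was −0.13. It was 73 with scaling to the homeostatic microglia markers, which moved the median of all genes to 0.74. With the neuron and astrocyte level as a covariate it was 59, where that median was 0.00. The share of all genes above 0 was not counted in these settings. Among the 74 genes, 52 (70.3%) had both AD/KO libraries above both AD libraries, as 20.3% of all genes had. Without AD/KO replicate 2, the remaining AD/KO library lay above both AD libraries in 55 of the 74 genes, where 28.6% of all genes did, and without AD replicate 2 the number was 70, where 41.3% of all genes did. The median of the 74 genes was 0.33 and 0.90 with the first and second AD library left out, and 0.76 and 0.36 with the first and second AD/KO library left out.

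**Figure D1:**
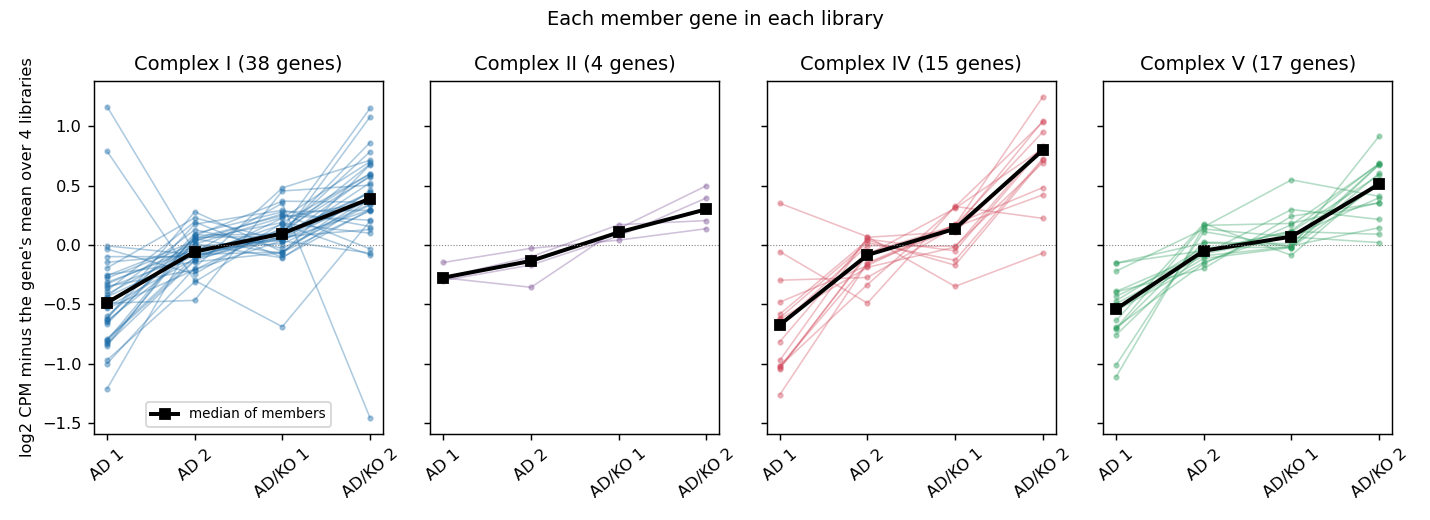
Each thin line is 1 gene, plotted as log2 CPM in each library minus the mean of that gene over the 4 libraries, and the black squares are the median over the genes of a complex. Libraries within a group have no order, and the lines only join the values of 1 gene. In all 4 complexes the median was lowest in AD replicate 1 and highest in AD/KO replicate 2, with AD replicate 2 and AD/KO replicate 1 between them.

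In 57 of the 74 genes AD replicate 1 was the lowest library and AD/KO replicate 2 the highest, an arrangement found in 31.1% of all genes. The neuron and astrocyte markers had that arrangement in 24 of 24 genes. In AD replicate 2 and AD/KO replicate 1 the 24 markers summed to 6260 and 6244 CPM, but the 12 neuron markers summed to 1270 and 957 CPM (3 of 12 higher in AD/KO replicate 1) and the 12 astrocyte markers to 4990 and 5287 CPM (11 of 12 higher). Between this pair, 56 of the 74 genes were higher in AD/KO replicate 1, where 50.2% of all genes were. The median log2 ratio of the 74 genes was 0.16, against 0.00 over all genes. Other markers of the pair also differed: neutrophil markers were at 4384 and 447 CPM and homeostatic microglia markers at 15350 and 22776 CPM. Oligodendrocyte markers were at 2671 and 3963 CPM (4 of 9 higher in AD/KO replicate 1), and markers of their precursors at 99.0 and 40.7 CPM. The part of these markers in the difference was not tested. With the neuron and astrocyte level as a covariate, the median log2 fold change of the 74 genes was 0.18, against 0.00 over all genes.

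**Figure D2:**
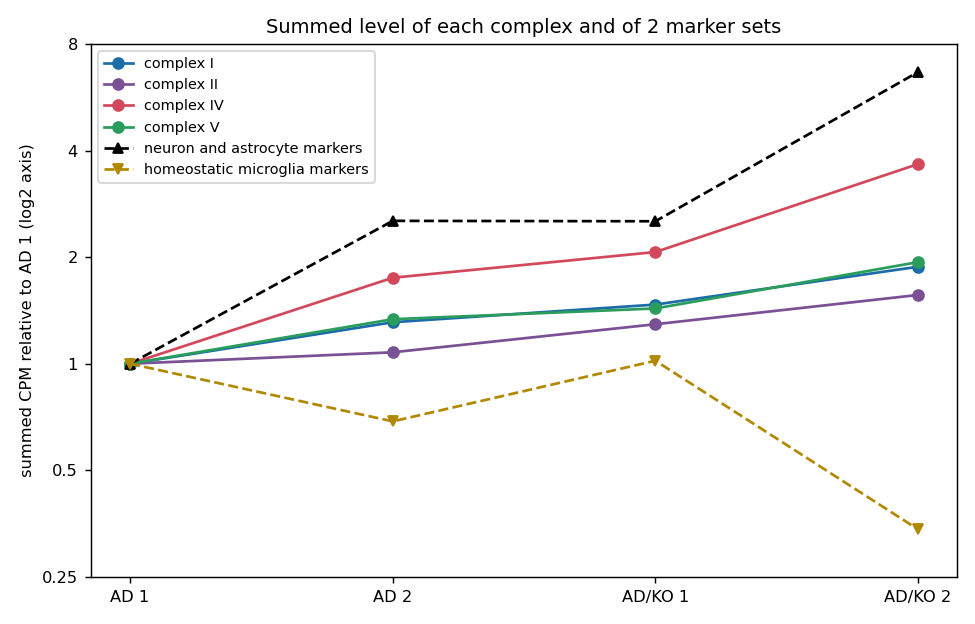
Summed CPM of the genes of each complex (solid lines) and of 24 neuron and astrocyte markers and 15 homeostatic microglia markers (dashed lines), each divided by its value in AD replicate 1, on a log2 axis. Complex IV reached 3.66 times its AD replicate 1 level in AD/KO replicate 2 and complex II 1.56 times, while the neuron and astrocyte markers reached 6.67 times and the microglia markers 0.341 times.

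For complex IV the median log2 fold change was 0.77. Of its 15 genes, 14 were above 0 (47.2% of all genes) and 10 higher in both AD/KO libraries (20.3% of all genes). Their summed level was 262 and 458 CPM in AD and 541 and 959 CPM in AD/KO, a ratio of the means of 2.08. As a share of the summed CPM of the 74 genes, complex IV took 16.6% and 21.3% in AD and 22.4% and 28.2% in AD/KO. With AD replicate 1 left out the median was 0.55, with AD replicate 2 left out 1.15, with AD/KO replicate 1 left out 1.19 and with AD/KO replicate 2 left out 0.48. It was 0.26 with the neuron and astrocyte level as a covariate.

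Cox8a (gene ID 12868, chromosome 19, 7215158 to 7217616), a small membrane subunit, was at 31.5 and 67.9 CPM in AD and at 84.8 and 179 CPM in AD/KO. The groups did not overlap, but the span within each group was more than that between AD replicate 2 and AD/KO replicate 1. Its log2 fold change of 1.41 (SE 0.57) was the largest of the 74 and did not pass the threshold (adjusted p = 0.680, edgeR quasi-likelihood with Benjamini-Hochberg). The covariate left 0.35.

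Cox6a1 (gene ID 12861, chromosome 5, 115345652 to 115348958), the isoform of subunit 6A made outside heart and skeletal muscle, was at 31.4 and 50.5 CPM in AD and at 79.5 and 130.1 CPM in AD/KO. All 4 libraries were in the same order as for Cox8a, with a wider gap between the groups. The log2 fold change was 1.36 (SE 0.42, adjusted p = 0.680, edgeR quasi-likelihood), and 0.68 with the covariate. Cox4i1 (gene ID 12857, chromosome 8, 120668225 to 120674209), the general isoform of subunit 4, was at 64.5 and 117 CPM in AD and at 144 and 269 CPM in AD/KO. Its log2 fold change was 1.18 (SE 0.50), or 0.32 with the covariate. Per kilobase of transcript, Cox4i1 had the highest level of the 73 genes with a known length, at 122 CPM per kb in AD and 277 CPM per kb in AD/KO, followed in AD by Cox8a at 90.4 CPM per kb.

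The 2 subunits named 5 differ in structure and are not isoforms of each other. Cox5b was at 12.6 and 24.2 CPM in AD and at 31.8 and 44.99 CPM in AD/KO, and Cox5a at 11.3 and 14.0 CPM and at 17.8 and 22.1 CPM. Neither group pair overlapped. Cox6c was at 10.5 and 20.7 CPM in AD and 24.3 and 41.9 CPM in AD/KO (log2 fold change 1.08), chosen here after its values were seen. Cox6b1, which faces the intermembrane space, had a log2 fold change of 0.86 (SE 0.47), with AD replicate 2 at 42.8 CPM close below AD/KO replicate 1 at 44.3 CPM.

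Of the 5 genes of subunit 7, 2 were higher in both AD/KO libraries (20.3% of all genes). Cox7b was at 12.3 and 18.9 CPM in AD and at 16.3 and 30.1 CPM in AD/KO, so that AD/KO replicate 1 lay inside the AD range. The same overlap held for Cox7c, which was chosen after its values were seen, for Cox7a2l, a factor that joins complexes III and IV into supercomplexes (26.1 and 40.4 CPM against 36.4 and 65.9 CPM), and for Ndufa4 (12.6 and 20.04 CPM against 19.97 and 32.5 CPM). In these 4 genes the log2 fold changes ran from 0.58 to 0.77, and with the covariate Cox7b, Cox7c and Cox7a2l changed sign, to −0.18, −0.07 and −0.12. Cox7a2, the general isoform of subunit 7A, did not overlap, at 8.49 and 11.5 CPM in AD and 12.9 and 23.3 CPM in AD/KO.

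Isoforms typical of other tissues were near the floor of the data. Cox6a2, the heart and muscle isoform, had 35 and 34 reads in AD and 30 and 35 reads in AD/KO. Scaled to depth it was the only gene of the 74 with both AD/KO libraries below both AD libraries (2.54 and 2.09 CPM against 1.56 and 1.90 CPM), where 21.7% of all genes were. Its log2 fold change was −0.42 (SE 0.55). With scaling to the homeostatic microglia markers it was 0.48, where the median of all genes was 0.74. Its exons overlap Itgad on the other strand. Cox7a1, the heart and muscle isoform of subunit 7A, had 20 and 24 reads in AD and 38 and 44 in AD/KO, and Cox6b2, the testis isoform of subunit 6B, 32 and 28 in AD and 58 and 52 in AD/KO. Cox4i2, the isoform linked to low oxygen, had 33 reads over all libraries, Cox8b had 22, Cox7b2 had 1 and Cox8c had 0, so that they stayed outside the 74 genes.

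**Figure D3:**
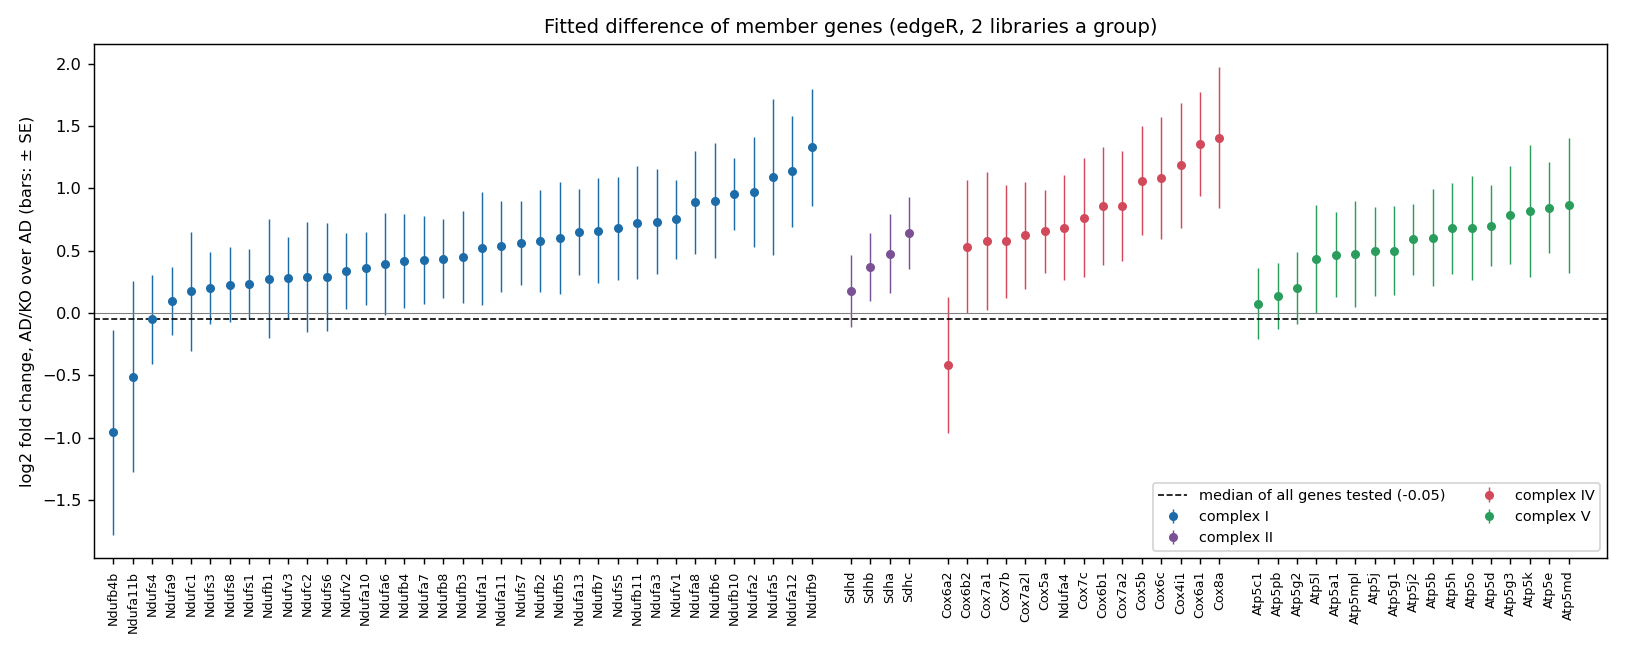
Points give the fitted log2 fold change of AD/KO over AD for 73 of the 74 genes, ordered by size within a complex, with bars of ± SE from the edgeR fit, and the dashed line is the median of all genes tested (−0.05). The 4 genes below 0 are Ndufb4b, Ndufa11b, Ndufs4 and Cox6a2.

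For complex I the median log2 fold change was 0.48. Of its 38 genes, 35 were above 0 (47.2% of all genes) and 27 higher in both AD/KO libraries (20.3% of all genes). Their summed level was 542 and 709 CPM in AD and 796 and 1018 CPM in AD/KO, a ratio of the means of 1.45. The median was 0.28 and 0.81 with the first and second AD library left out, and 0.67 and 0.36 with the first and second AD/KO library left out. It was 0.18 with the covariate.

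The N module is the tip of the matrix arm, where NADH is oxidised. Its 3 core genes Ndufv1, Ndufv2 and Ndufs1 all lay higher in both AD/KO libraries (20.3% of all genes), with a median log2 fold change of 0.34. With the covariate they were at 0.37, 0.06 and 0.03. Ndufv1, which holds the flavin that takes electrons from NADH, was at 30.9 and 38.7 CPM in AD and at 49.5 and 67.8 CPM in AD/KO (log2 fold change 0.75, SE 0.31). Ndufs1, the largest subunit, was at 44.6 and 46.8 CPM in AD and at 47.4 and 60.2 CPM in AD/KO, so that 3 libraries lay close together and AD/KO replicate 2 stood above them. Of the 5 accessory genes, 4 had a log2 fold change above 0 (47.2% of all genes), and 2 had with the covariate. Ndufa12 (gene ID 66414, chromosome 10, 94199035 to 94221440) was at 4.35 and 7.62 CPM in AD and at 12.1 and 14.3 CPM in AD/KO. Its log2 fold change was 1.14 (SE 0.45), and 0.69 with the covariate, but its transcript shares 402 bases at 99.5% identity with Gm15920. Ndufs4, needed for late assembly of the complex, was at 10.6 and 14.2 CPM in AD and at 12.4 and 11.6 CPM in AD/KO. Its log2 fold change of −0.05 (SE 0.36) turned to 0.24 without AD replicate 2. With scaling to the homeostatic microglia markers it was 0.71, where the median of all genes was 0.74.

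The Q module passes electrons to ubiquinone, and its 4 core genes had a median log2 fold change of 0.38. Ndufs7, which carries the last iron-sulphur cluster, was at 16.5 and 25.02 CPM in AD and at 29.2 and 31.9 CPM in AD/KO. Ndufs8 did not separate the groups, with AD/KO replicate 2 at 25.5 CPM below AD replicate 2 at 26.6 CPM. Of the 4 accessory genes, Ndufa5 was at 3.56 and 8.61 CPM in AD and 8.65 and 17.4 CPM in AD/KO, and its log2 fold change went from 1.09 to 0.04 with the covariate. Ndufa9 was at 34.5 and 32.8 CPM in AD and at 39.1 and 32.7 CPM in AD/KO (log2 fold change 0.10, SE 0.28).

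The P module is the membrane arm that pumps protons, and its nuclear genes are accessory subunits. All 20 had a log2 fold change above 0 (17 with the covariate, where Ndufb5, Ndufc1 and Ndufc2 were below), with a median of 0.59. Of the 20, 17 were higher in both AD/KO libraries (20.3% of all genes). Ndufb10 (gene ID 68342, chromosome 17, 24722060 to 24724423), named after its values were seen, was at 13.8 and 14.0 CPM in AD and at 26.5 and 27.5 CPM in AD/KO. The libraries of each group lay within 1 CPM of each other, whereas most of the 74 genes differed within each group. Its log2 fold change of 0.96 (SE 0.29, adjusted p = 0.680, edgeR quasi-likelihood) was 0.92 with the covariate and ran from 0.93 to 1.03 with each library left out in turn. Between AD replicate 2 and AD/KO replicate 1, its log2 ratio of 0.92 was the largest of the 74.

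Ndufb9 (gene ID 66218, chromosome 15, 58933801 to 58939516), another membrane arm subunit, was at 19.7 and 31.2 CPM in AD and at 42.4 and 85.7 CPM in AD/KO. Its exons overlap Gm49356 on the same strand, and reads shared by overlapping genes make its level uncertain. The log2 fold change of 1.33 (SE 0.47) was 0.75 without AD/KO replicate 2 and 0.47 with the covariate. Ndufa1, an X-linked gene, was at 4.50 and 7.62 CPM in AD and at 8.65 and 8.74 CPM in AD/KO. Ndufc1 was at 3.99 and 5.96 CPM in AD and at 4.85 and 6.40 CPM in AD/KO, with the smallest difference of the module (0.18, SE 0.48), and turned to −0.10 without AD replicate 1, to −0.03 without AD/KO replicate 2 and to −0.28 with the covariate.

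The 2 further copies of complex I genes lay below 0 and were named after their values were seen. Ndufb4b (gene ID 100042503, chromosome 19, 25033108 to 25033578) was at 7.33 and 3.14 CPM in AD and at 4.17 and 1.19 CPM in AD/KO. Its log2 fold change of −0.96 (SE 0.82) was the lowest of the 74 and turned to 0.37 with the covariate. Ndufb4 itself, also named after its values were seen, was at 9.58 and 10.3 CPM in AD and at 10.9 and 15.7 CPM in AD/KO. The Ndufb4 transcript is identical to Ndufb4c over 390 bases, so its reads could be divided among copies. Ndufb4b was not matched to a GENCODE transcript and was not searched for copies. Ndufa11b, listed by RefSeq as a transcribed pseudogene, had 18 and 10 reads in AD and 9 and 16 in AD/KO. Its log2 fold change of −0.51 (SE 0.77) turned to 0.10 without AD replicate 1. With scaling to the homeostatic microglia markers it was 0.53, where the median of all genes was 0.74.

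**Figure D4:**
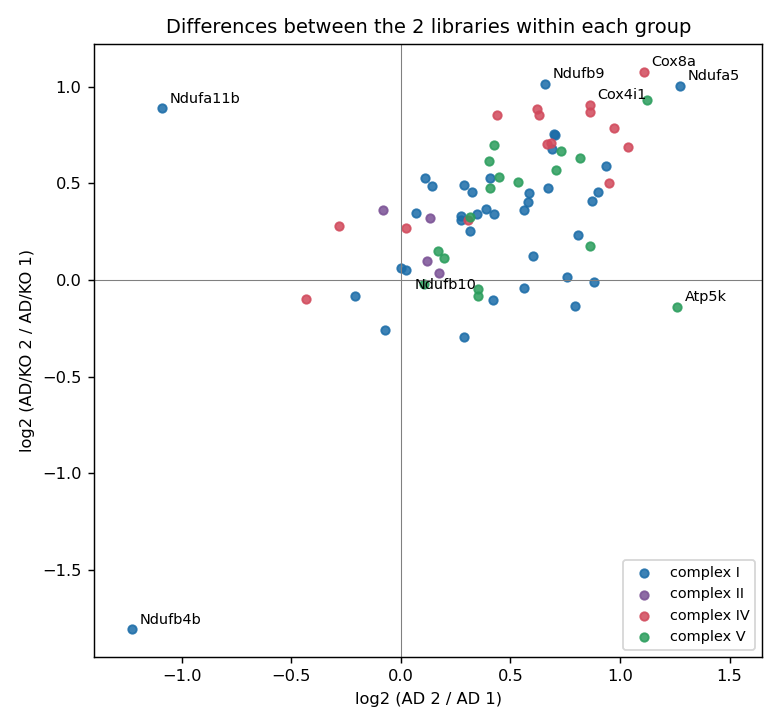
Each point is 1 of the 74 genes, with the log2 ratio of AD replicate 2 over AD replicate 1 on the x axis and of AD/KO replicate 2 over AD/KO replicate 1 on the y axis, coloured by complex. Most points lie above 0 on both axes, Cox8a at 1.11 and 1.08, while Ndufb10 lies near 0 on both and Ndufb4b far below.

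The libraries of each group also differed from each other in most of the 74 genes. AD replicate 2 lay above AD replicate 1 in 66 of the 74 genes (51.3% of all genes), with a median log2 ratio of 0.42, and AD/KO replicate 2 above AD/KO replicate 1 in 61 (49.1% of all genes), with a median of 0.36. Across the 74 genes the 2 ratios had a Pearson correlation of 0.52, below the 0.72 across all genes tested. This is across genes of the same 4 libraries, which are not independent replicates. Atp5k went another way, with 4.28 and 10.3 CPM in AD and 13.5 and 12.3 CPM in AD/KO.

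Complex II genes had a median log2 fold change of 0.42, and all 4 lay higher in both AD/KO libraries (20.3% of all genes). Sdha (gene ID 66945, chromosome 13, 74322255 to 74350240), the flavoprotein that oxidises succinate, was at 128 and 140.5 CPM in AD and at 166 and 208 CPM in AD/KO. Sdhb, its iron-sulphur partner, was at 24.7 and 27.8 CPM in AD and at 33.6 and 34.4 CPM in AD/KO. Of the membrane anchors, Sdhc was at 28.5 and 27.0 CPM and at 38.0 and 48.8 CPM, and Sdhd at 20.3 and 22.1 CPM and at 23.1 and 24.7 CPM. The largest of these differences, that of Sdhc, was 0.64 on the log2 scale (SE 0.29) and did not pass (adjusted p = 0.680, edgeR quasi-likelihood with Benjamini-Hochberg).

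The libraries of a group lay closer in complex II than in the other complexes: the summed level was 202 and 217 CPM in AD and 261 and 316 CPM in AD/KO, 209.6 ± 11.01 against 288 ± 38.7 CPM (SD, n = 2 each). The median was 0.34 with either AD replicate 1 or AD/KO replicate 2 left out, 0.57 with AD replicate 2 and 0.56 with AD/KO replicate 1 left out, and 0.26 with the covariate. Between AD replicate 2 and AD/KO replicate 1, complex II was 1.20-fold higher in the latter, complex IV 1.18-fold, complex I 1.12-fold and complex V 1.07-fold.

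For complex V the median log2 fold change was 0.59, and 17 of 17 genes were above 0 (47.2% of all genes). The count was 16 with upper-quartile scaling, where Atp5c1 was at −0.00, and 13 with the covariate. Of the 17 genes, 11 were higher in both AD/KO libraries (20.3% of all genes). Their summed level was 574 and 766 CPM in AD and 822 and 1111 CPM in AD/KO, a ratio of the means of 1.44. With 1 library left out the median ran from 0.32 (AD/KO replicate 2) and 0.33 (AD replicate 1) to 0.79 (AD/KO replicate 1) and 0.96 (AD replicate 2), and it was 0.11 with the covariate.

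In the F1 head, where ATP is made, Atp5b (gene ID 11947, chromosome 10, 128083307 to 128090388), the catalytic beta subunit, was at 148 and 196 CPM in AD and at 207 and 317 CPM in AD/KO. Atp5a1, the alpha subunit, was at 147 and 184 CPM in AD and at 203 and 255 CPM in AD/KO. Both kept the order of the libraries, with log2 fold changes of 0.61 (SE 0.39) and 0.47 (SE 0.34), and with the covariate of 0.09 and 0.15. The central stalk joins the head to the rotor. There Atp5e (epsilon) was at 13.4 and 19.4 CPM in AD and 24.3 and 34.6 CPM in AD/KO, while Atp5c1 (gamma) was at 38.3 and 49.0 CPM and 46.8 and 45.3 CPM and did not separate the groups.

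The c ring is the rotor, and 3 genes encode the same mature c subunit with different import signals. Atp5g1 was at 8.42 and 10.8 CPM in AD and at 14.0 and 13.2 CPM in AD/KO, Atp5g2 at 18.3 and 19.7 CPM and at 22 and 21.7 CPM, and Atp5g3 at 18.0 and 29.4 CPM and at 33.0 and 48.9 CPM. All 3 were higher in both AD/KO libraries (20.3% of all genes). Their spread differed: Atp5g3 followed the order of most of the 74 genes, whereas AD/KO replicate 2 was not above AD/KO replicate 1 in Atp5g1 and Atp5g2. The log2 fold changes of Atp5g1, Atp5g2 and Atp5g3 were 0.50 (SE 0.35), 0.20 (SE 0.29) and 0.79 (SE 0.39). With the covariate they were 0.38, 0.16 and 0.19, so that Atp5g3 was no longer the largest. The Atp5g2 transcript is identical to Gm10231 over 441 bases, and that of Atp5g1 shares 411 bases at 99.8% identity with Gm10039. No such copy was found for Atp5g3. Reads of Atp5g1 and Atp5g2 could thus be divided among copies, and the part of this in their spread was not tested.

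The peripheral stalk holds the head still against the rotor. Of its 4 genes, 1 was higher in both AD/KO libraries, a share near the 20.3% of all genes. That gene was Atp5h, chosen after its values were seen, at 28.0 and 37.6 CPM against 40.1 and 65.0 CPM. Atp5o was at 15.5 and 25.8 CPM in AD and at 25.6 and 40.6 CPM in AD/KO, and Atp5pb at 39.99 and 44.99 CPM and at 44.3 and 49.2 CPM, a log2 fold change of 0.14 (SE 0.27). Among 5 small membrane subunits, Atp5md was at 9.44 and 20.5 CPM in AD and at 18.8 and 35.8 CPM in AD/KO, and its log2 fold change went from 0.86 to −0.10 with the covariate.

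Other genes of the pathway were compared by lists, none of which held a gene past the threshold (0% of all genes). Over all genes tested, 47.2% were above 0, with a median of −0.05. All 9 nuclear complex III genes had a log2 fold change above 0 (median 0.63), as did the 13 mitochondrially encoded subunits (median 0.90). Those 13 summed to 8972 and 24730 CPM in AD and to 21316 and 40250 CPM in AD/KO, so that AD replicate 2 exceeded AD/KO replicate 1. Assembly factors, the helpers that build the complexes but are not part of them, had medians from −0.01 to 0.26. Of 15 complex I assembly factors 8 were above 0 (median 0.10), as were 11 of the 17 tested for complex IV (median 0.09), 2 of 4 for complex II (median 0.26) and 1 of 3 for complex V (median −0.01).

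Of 15 genes of the citric acid cycle and pyruvate dehydrogenase, 14 were above 0 (median 0.30), and of 75 mitochondrial ribosomal protein genes 54 were (median 0.19). Of 11 regulators of mitochondrial gene expression, 5 were above 0 (median −0.09), a share near the 47.2% of all genes. Gabpa, the DNA-binding part of GABP, was at 46.6 and 41.9 CPM in AD and at 35.03 and 27.6 CPM in AD/KO, and Ppargc1a, a coactivator of mitochondrial biogenesis, at 5.88 and 18.6 CPM and at 17.4 and 47.4 CPM. Both were named after their values were seen. The groups of Ppargc1a overlapped, with AD replicate 2 at 18.6 CPM above AD/KO replicate 1 at 17.4 CPM. Of the 11 regulators, 1 was higher and 1 lower in both AD/KO libraries (20.3% and 21.7% of all genes). Ndufab1, an acyl carrier subunit of complex I that the symbol rule does not take, had a log2 fold change of 0.03 (SE 0.37).

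The promoters were matched by symbol for 63 of the 74 genes. NRF1 letters were found in 7 of them (11.1%, against 2.07% of 27025 genes with a promoter), GABP letters in 15 (23.8%, against 9.93%) and YY1 letters in 10 (15.9%, against 3.19%). The median log2 fold change of the members was 0.53 with and 0.58 without NRF1 letters, 0.68 and 0.57 for GABP, and 0.36 and 0.61 for YY1. In 8 of the 10 genes the YY1 letters lay on the gene's strand between 23 and 39 bases after the start, a placement found after the start in 12.7% of these promoters and 1.04% of all. Sites of 3 genes show this placement, with YY1 letters in capitals, and include Ndufs4 and Ndufa9, which had log2 fold changes near 0.
Ndufs4 (chr13:114388045-114388067, minus strand): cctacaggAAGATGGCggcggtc
Ndufa9 (chr6:126849100-126849123, minus strand): tgtgggagAAGATGGCggccgccg
Ndufs7 (chr10:80249465-80249488, plus strand): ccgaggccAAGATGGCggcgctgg
A match is a run of letters and not a measured site.

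The 74 genes lay on 19 chromosomes. Their transcripts were short, with a median of 714 bases over 73 genes against 2858 for the protein-coding genes tested. The 51 genes of at most 1000 bases had a median log2 fold change of 0.66, against 0.04 for 1008 other protein-coding genes of that length, and the 22 longer genes had 0.42, against 0.04 for 13767 others. Near-identical transcripts of other genes (at least 95% identity over at least 100 bases) were found for 21 of the 73, with a median log2 fold change of 0.62 against 0.57 in the other 52, so reads of those 21 could be divided among copies. In 25 genes exons overlap a gene on the other strand, Cox4i1 with Emc8 and Atp5a1 with Haus1 among them, and the use of strand in counting was not given in the sources used here.

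**Figure D5:**
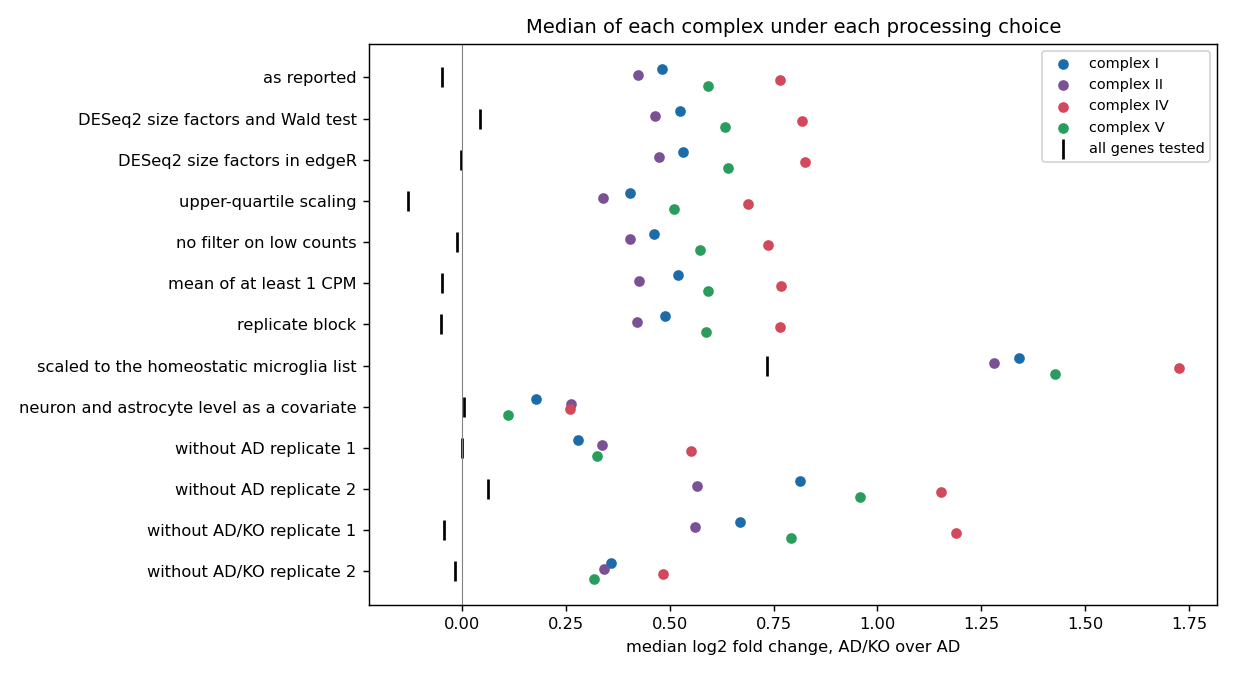
Median log2 fold change of AD/KO over AD of the genes of each complex (coloured points) and of all genes tested (black ticks), for the reported fit and each other choice of scaling, filter, design or libraries. The 4 complexes lay above all genes in each row, least so with the neuron and astrocyte level as a covariate, where they ran from 0.11 for complex V to 0.26 for complexes II and IV.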

How the data were processed

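RNA-seq of 4 libraries (AD and AD/KO, n = 2 each) was analysed. The authors deposited raw read counts per gene symbol, 1 table per library; the submitters' processing notes name FastQC, HISAT2, SAMtools, featureCounts (Subread), DESeq2 1.30.0 and the build mm10, without settings. Per the labels' protocols, RNA was extracted with TRIzol and ribosomal RNA was depleted before a stranded library kit. In each table, 11 broken lines without a count were dropped; 0 columns lacked a sample. Totals ran from 13102622 to 19810076 counts.

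Genes were filtered with filterByExpr (minimum count 10, minimum total 15), scaled by TMM and tested with edgeR 4.0.16 (R 4.3.3) by the quasi-likelihood F-test without covariates, with Benjamini-Hochberg adjustment over all genes and a threshold of 0.05. The SE is the log2 fold change divided by the square root of F. The procedure was tested on simulated data. With 2 libraries against 2, an exact permutation test cannot reach 0.05, so summed levels carry no test. CPM are TMM-scaled; log2 ratios between single libraries over gene lists used a pseudocount of 0.5 CPM. Gene positions and promoters are from RefSeq for GRCm38.p6, the build of mm10, and matched all 74 genes and 63 of 74; transcript lengths and sequences are from GENCODE M21, searched with BLAST 2.17.0.

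Named genes were core and isoform-pair subunits, plus in complexes I, IV and V the 3 largest and 3 smallest fold changes among genes with a mean of at least 5 CPM; 1 core gene of complex I is not reported here by itself. The members, lists and alternatives were chosen with earlier results of these data known. Alternatives were DESeq2 1.42.0, other scalings and filters, the replicate number as a block, a neuron and astrocyte covariate, and each library left out in turn.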

Additional observations from a re-analysis of the deposited data

How the results depend on the processing

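Depth limits Cox6a2, Cox7a1, Cox6b2 and Ndufa11b, with 9 to 58 reads in a library. The number of genes called was 0 by edgeR (1072 at an unadjusted p under 0.05), 91 by DESeq2's own test, and 48 and 524 without AD replicate 1 and without AD replicate 2 (range with a library left out 0 to 524); the number of members called was 0 in each of these. The cause was not tested. Scaling to the homeostatic microglia markers moved the median of all genes from −0.05 to 0.74 and gave medians of 1.34, 1.28, 1.73 and 1.43 for complexes I, II, IV and V and 1.42 for all members. With the neuron and astrocyte level as a covariate they were 0.18, 0.26, 0.26, 0.11 and 0.18; this fit has 3 coefficients for 4 libraries. With each library left out in turn they ran from 0.28 to 0.81, 0.34 to 0.57, 0.48 to 1.19, 0.32 to 0.96 and 0.33 to 0.90. Under the other scalings, filters and tests all 5 medians stayed within 1 SD of the reported value. At a mean of at least 1 CPM, Ndufa11b was not tested.

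Replicates are numbered 1 and 2 in either group, and nothing in the labels ties equal numbers together. Across genes, the deviation from the group mean correlated at 0.72 between libraries with the same number. With the replicate number as a block, 4333 genes were called, 2878 of them higher in AD/KO (13.4% of all genes), and 26 of the 74 members, all higher (10 of complex I, 0 of complex II, 10 of complex IV and 6 of complex V). Neuron and astrocyte markers were also higher in replicate 2 of either group. Of 899 values of single genes under the alternatives, 26 passed the threshold only with the block, 25 changed sign without passing, 13 of them with the covariate, and the others stayed as reported in direction and call.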
